A study of Mus musculus with 7 samples.

Results

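The desmosomal cadherins and plakophilins are the junction proteins that join neighbouring keratinocytes, the cells of the epidermis. The 10 genes described here are those listed by symbol as Dsg1a, Dsg1b, Dsg2, Dsg3, Dsg4, Dsc1, Dsc2, Dsc3, Pkp1 and Pkp3, and each was found as 1 of the 22552 gene symbols in the expression table. They were chosen by name and not by their values. RNA had been sequenced from cells purified by flow sorting from the skin of mice of mixed CD1 and C3H background at postnatal day 50. The 7 libraries each stand for a group of their own: ear epidermis and ear dermis of wild-type mice (Wt/Wt, here WT), ear epidermis and ear dermis of mice with 1 Koa allele (Wt/Koa, here Koa), dorsal epidermis and dorsal dermis of WT mice, and tail dermis of WT mice. Koa is a dominant allele with a chromosomal inversion near the Hoxc cluster, and its carriers have hairy ears. The labels do not say how many animals went into a library, nor by which markers the cells were sorted, and for the tail the layer is given only in the sample name.

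Desmosomes are patches of adhesion that anchor the keratin filaments of one cell to those of the next. Desmogleins (Dsg) and desmocollins (Dsc) are cadherins that span the membrane and bind each other between cells. Inside the cell plakophilins (Pkp) and plakoglobin (Jup) bind the cadherin tails and hold desmoplakin (Dsp), which reaches the keratins. In the epidermis Dsg3 and Dsc3 are strongest in the lower layers, Dsg1 and Dsc1 in the upper layers, while Dsg4 belongs to the hair follicle and the upper layers.

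With 1 library in each group, the differences below have no replicate check and none was tested. Levels are in FPKM, the authors' deposited unit, which corrects fragment numbers for transcript length and for the mapped total. A difference is on the log2(FPKM + 1) scale, which understates changes of low genes, and was called when it reached 1 in either direction for a gene that reached 1 FPKM in either library. The share of all genes called in the same way stands beside the counts of members called by this rule. Most counts of the other gene lists stand without it, and it is not given for genes higher in the tail. Ratios carry exact 95% intervals for counting error, computed from a depth recovered from the values (31.7 to 40.4 M, or mega, fragments in 6 libraries), and these intervals leave out variation between animals. The fragments behind them assume the longest transcript and are approximate for genes with several transcripts. They are approximate for Dsg1a and Dsg1b too, and the intervals leave out how reads were divided between these like genes.

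Fibroblast markers set the dermal libraries apart from the epidermal ones, with qualifications that touch the results. Summed fibroblast markers (8 genes) stood between 6206 and 10931 FPKM in the 4 dermal libraries and between 20.6 and 44.5 FPKM in the 3 epidermal ones, where summed basal keratinocyte markers (8 genes) stood between 15103 and 19868 FPKM. The same basal markers summed to 764 FPKM in WT ear dermis and 1912 FPKM in Koa ear dermis. They summed to 6312 FPKM in WT dorsal dermis, above the 6206 FPKM of its fibroblast markers, and to 133 FPKM in WT tail dermis. Keratinocyte marker RNA was therefore measured in every dermal library, in different amounts. Stress response genes (8, among them Fos and Atf3) summed to between 360 and 748 FPKM in the 4 ear libraries and to between 4387 and 8512 FPKM in the dorsal and tail libraries. The tail library also stands apart in its values, which carry at most 2 decimals, and in sex-linked genes. Xist, transcribed from the inactive X chromosome, stood at 41.5 FPKM there and at most 0.122 FPKM elsewhere, while Ddx3y, carried on the Y chromosome, had a value of 0 there against 33.1 to 38.3 FPKM elsewhere. Ddx3y is thereby among the symbols at 0 in the tail that were left out of tail comparisons. Whether its 0 is a lost value was not tested.

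All 8 cadherin genes lie side by side in 1 cluster on chromosome 18 (19960930 to 20604526, RefSeq on GRCm38), Pkp1 lies on chromosome 1 (135871394 to 135919207) and Pkp3 on chromosome 7 (141078229 to 141090511). The mouse has 3 Dsg1 genes, and their transcripts are alike enough to matter for counting. Of all 50-nt windows of the Dsg1a transcript 31.6% also occurred in Dsg1b and 18.8% in Dsg1c, and of those of Dsg1b 45.5% occurred in Dsg1a. No other pair among the members shared a window. Single values of Dsg1a and Dsg1b are therefore uncertain, since reads could be divided between them. Dsg1c, which is not a member, stood at 0.366 FPKM at most.

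The desmogleins span the widest range of levels in the family. Dsg1a, a target of the autoantibodies of pemphigus foliaceus, stood at 130.2 FPKM in WT ear epidermis, 196 in Koa ear epidermis and 203 in WT dorsal epidermis. In dermis it stood at 5.39 FPKM in WT ear, 20.6 in Koa ear, 72.9 in WT back and 0.52 in WT tail. The 3 epidermal values lie above all dermal ones, and apart from the tail WT ear is the lowest library in each layer. Dsg3, the pemphigus vulgaris antigen of the lower layers, stood at 87.2, 106 and 74.4 FPKM in WT ear, Koa ear and WT dorsal epidermis, and at 5.61, 10.9, 32.7 and 0.43 FPKM in WT ear, Koa ear, WT dorsal and WT tail dermis. Here the back was the lowest epidermal library and the highest dermal one.

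Dsg2, the desmoglein that simple epithelia and heart also use, varied little among epidermal libraries: 29.3 FPKM in WT ear, 31.4 in Koa ear and 25.8 in WT back. Its dermal levels were 6.58 FPKM in WT ear, 9.39 in Koa ear, 12.9 in WT back and 0.04 in WT tail, so that in WT ear dermis it was the highest desmoglein. Dsg1b, a paralog of Dsg1a, stood at 8.92, 11.9 and 7.89 FPKM in WT ear, Koa ear and WT dorsal epidermis and at 0.463, 1.26, 3.62 and 0.14 FPKM in WT ear, Koa ear, WT dorsal and WT tail dermis. It followed the order of libraries of Dsg3.

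Dsg4 was the lowest member in every epidermal library and varied the most among them as a ratio. This desmoglein of hair, mutated in lanceolate hair mice, stood at 2.50 FPKM in Koa ear epidermis, 0.424 in WT dorsal epidermis and 0.113 in WT ear epidermis. In dermis it stood at 0.584 FPKM in Koa ear, 0.396 in WT back and 0.02 in WT tail, and was listed at 0 in WT ear, where 3 fragments would come to 0.0252 FPKM. With 1 annotated transcript its fragments can be read off nearly whole: 290 in Koa ear, 44 in WT dorsal and 15 in WT ear epidermis, then 68, 42 and 0 in the dermis of the same skin. Both Koa libraries stood highest within their layer, although the interval for Koa against dorsal dermis, 0.988 to 2.22, holds 1.

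Among the desmocollins Dsc3 made up nearly the whole sum. Dsc3, the desmocollin of the lower layers, had the highest level of all members in each of the 3 epidermal libraries, at 348 FPKM in WT ear, 406 in Koa ear and 324 in WT back. Dermal levels were 22.8 FPKM in WT ear, 48.0 in Koa ear, 118 in WT back and 0.82 in WT tail. Dsc1, its counterpart of the upper layers, stood at 16.6, 18.8 and 19.4 FPKM in WT ear, Koa ear and WT dorsal epidermis and at 1.25, 2.46, 10.7 and 0.37 FPKM in WT ear, Koa ear, WT dorsal and WT tail dermis. The difference between its Koa and dorsal epidermal levels lies within counting error (0.918 to 1.03 as a ratio).

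Dsc2, the desmocollin found in most tissues with desmosomes, was low except in 1 library. It stood at 6.07 FPKM in Koa ear epidermis against 1.46 in WT ear and 2.41 in WT dorsal epidermis. In dermis it stood at 1.11 FPKM in Koa ear, 0.909 in WT back, 0.313 in WT ear and 0.07 in WT tail. Like Dsg4 it was highest in Koa in both layers, and its dermal levels in Koa ear and back again lay within counting error of each other (a ratio of 0.965 to 1.54).

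The plakophilins were close to each other in pattern. Pkp1, whose loss in people causes fragile skin, stood at 272 FPKM in WT ear, 323 in Koa ear and 303 in WT dorsal epidermis, and at 18.0, 36.9, 122 and 3.85 FPKM in WT ear, Koa ear, WT dorsal and WT tail dermis. Pkp3, found in all living layers of the epidermis, stood at 128, 151 and 129 FPKM and at 7.78, 16.3, 44.6 and 1.17 FPKM in the same order. The ratio of Pkp1 to Pkp3 stayed between 2.13 and 2.73 in the 6 libraries other than the tail. Over all members, 5 of 50 pairs of neighbours in the order of these 6 libraries had a counting interval that holds 1.

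**Figure D1:**
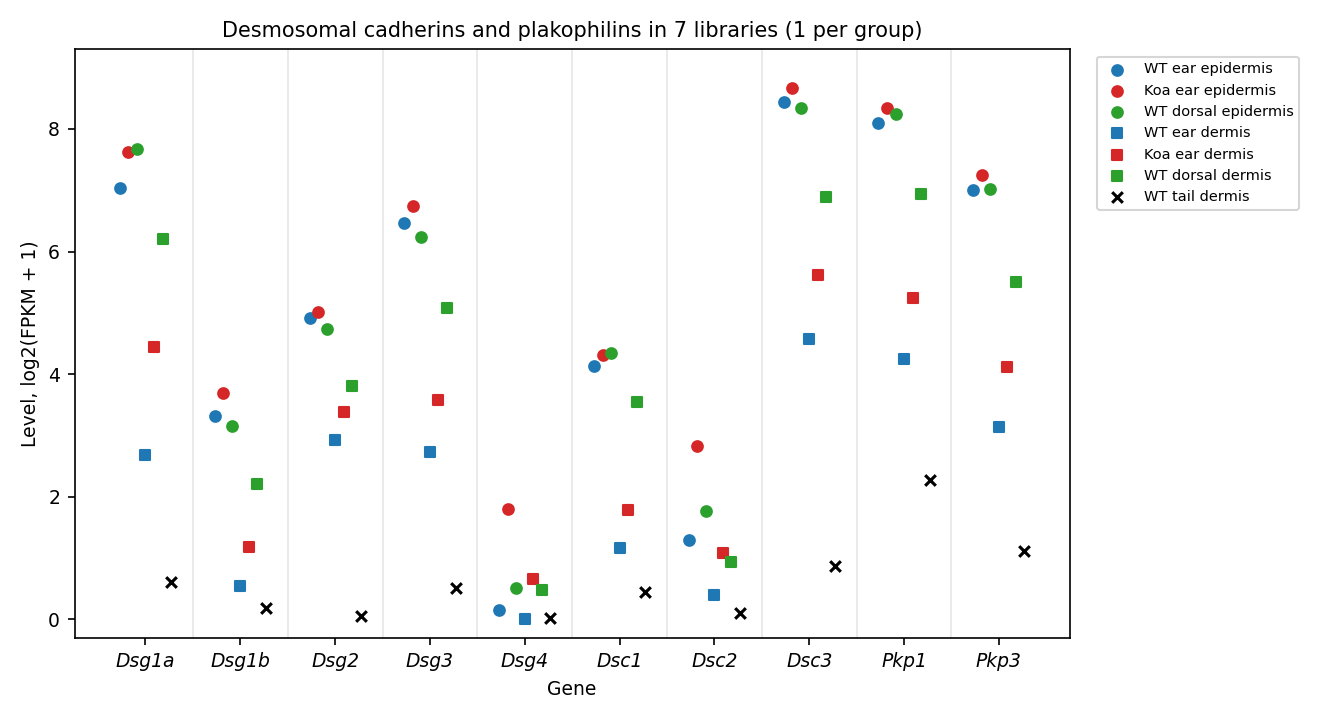
Level of each member in log2(FPKM + 1) in the 7 libraries, with circles for epidermis, squares for dermis and crosses for tail dermis, and colours for WT ear, Koa ear and WT back. Dsc3 and Pkp1 are the highest members in epidermis, and Dsg4 and Dsc2 are low except in Koa ear epidermis, at 2.50 and 6.07 FPKM.

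The makeup of the desmogleins differed by body site, genotype and layer among the 6 libraries other than the tail, and that of the other families less. Dsg1a made up 50.9% of the summed desmoglein FPKM in WT ear, 56.5% in Koa ear and 65.2% in WT dorsal epidermis. Dsg3 made up 34.1%, 30.4% and 23.9% in the same libraries. In dermis Dsg1a made up 29.9% in WT ear, 48.2% in Koa ear and 59.5% in WT back. The ratio of Dsg1a to Dsg3 was 1.49, 1.86 and 2.73 in epidermis and 0.960, 1.89 and 2.23 in the matching dermis, so the order WT ear, Koa ear, back was the same in both layers. The ratio of Krt1, a keratin of the upper layers, to Krt14, a keratin of the basal layer, followed that order in epidermis (0.0699, 0.113 and 0.306) and in dermis (0.103, 0.114 and 0.407). Its part in the desmoglein ratio was not tested.

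The pair of Dsc1 and Dsc3, another upper and lower layer gene, moved less. Their ratio was 0.0476 in WT ear, 0.0464 in Koa ear and 0.0598 in WT dorsal epidermis, and 0.0551, 0.0513 and 0.0904 in the matching dermis. The back was highest in both layers, by more in dermis. Dsc3 made up between 91.1% and 95.1% of the desmocollin sum in the 6 libraries other than the tail. In ear epidermis Dsc2 made up 1.41% of that sum in Koa and 0.400% in WT. Among desmogleins, Dsg2 made up 36.5% of the sum in WT ear dermis, against 8.28% to 11.5% in the 3 epidermal libraries. It made up 21.9% in Koa ear dermis and 10.6% in WT dorsal dermis, the latter within the epidermal range.

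**Figure D2:**
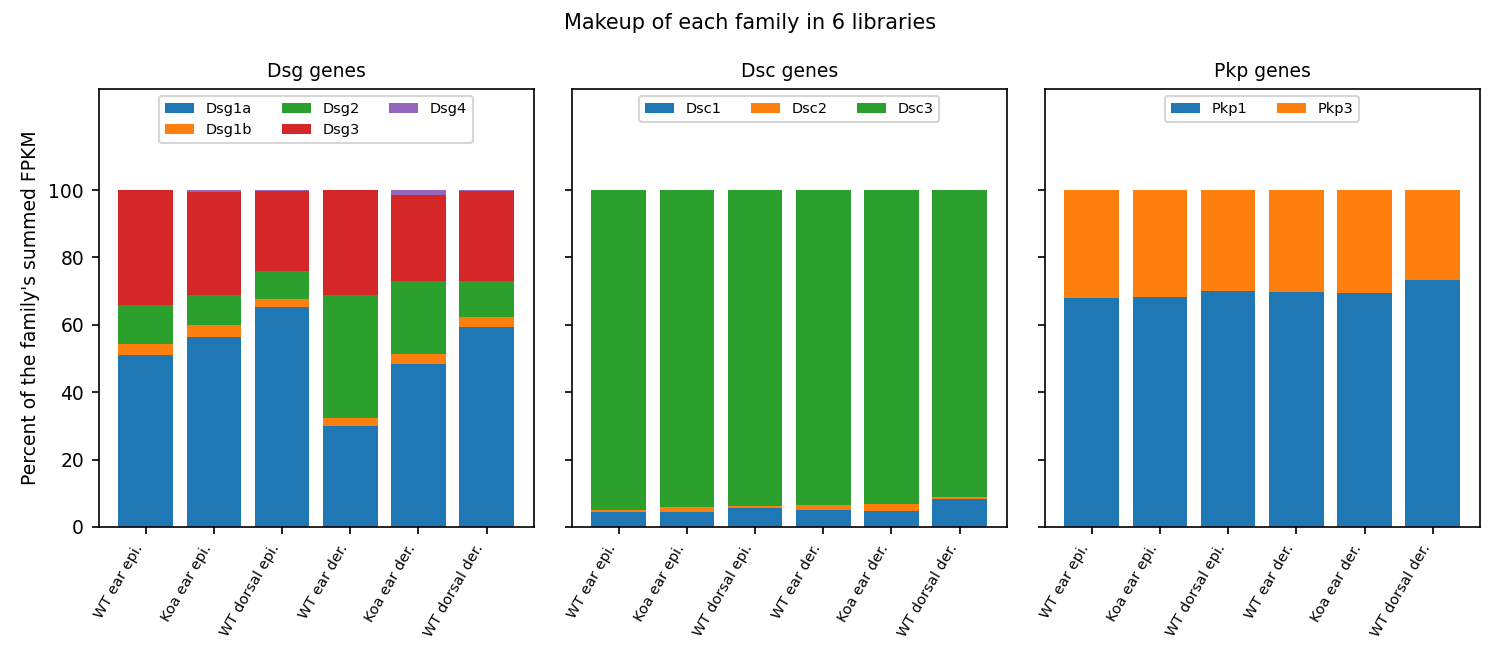
Share of each gene in the summed FPKM of its family, in percent from 0, for 3 epidermal (epi.) and 3 dermal (der.) libraries. The share of Dsg1a runs from 50.9% to 65.2% in epidermis, that of Dsc3 stays above 91%, and Dsg2 takes 36.5% in WT ear dermis.

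The first comparison asks what the Koa allele changes in ear epidermis. Dsg4 and Dsc2 were higher in Koa by the size rule and the other 8 members were not. Dsg4 differed by 1.65, a ratio of 22.0 (13.1 to 39.9), and Dsc2 by 1.52, a ratio of 4.15 (3.61 to 4.77). These 2 of 10 members compare with 2.15% of all genes called higher in this comparison. At a pseudocount of 5 neither passed, and Dsg4 has under 5 FPKM in both libraries.

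As measured, the abundant members were slightly higher in Koa. All 10 differences were above 0, with a median of 0.26, beside a median of -0.01 over all genes, of which 49.1% were above 0. Dsg1a stood at a ratio of 1.51 (1.49 to 1.53), Dsg3 at 1.21 (1.19 to 1.24), Dsc3, Pkp1 and Pkp3 between 1.17 and 1.19, and Dsg2 at 1.07 (1.03 to 1.11). The median of the basal keratinocyte markers was 0.33, 7 of 8 above 0, and none of them was called. Relative to that marker median 4 members were above 0 and 6 below (Dsg2, Dsg3, Dsc1, Dsc3, Pkp1 and Pkp3), with a median of -0.07, while Dsg4 (1.32) and Dsc2 (1.19) stayed called.

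Other junction genes in ear epidermis gave 1 further call. Of the other desmosome genes 1 of 8 was higher in Koa, Evpl, which encodes envoplakin, a plakin of the cornified envelope (50.7 against 24.1 FPKM, a difference of 1.04). Dsp stood at 618 against 442 FPKM and Jup at 177 against 136 FPKM, neither called. None of 9 adherens junction genes (median 0.35), 8 tight junction genes (median 0.39) or 9 epidermal transcription factors (median 0.58) was called, with β-catenin (Ctnnb1) at 254 against 225 FPKM, E-cadherin (Cdh1) at 194 against 152 FPKM and the claudin Cldn1 at 105 against 80.1 FPKM.

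Hair markers moved with Dsg4 and Dsc2. Of 14 expressed keratins and other markers of the inner root sheath and hair shaft 12 passed the rule upward in Koa and none downward, and the median was 2.22. Their summed level was 196 FPKM in Koa ear, 82.7 in WT dorsal and 27.7 in WT ear epidermis, the order that Dsg4 and Dsc2 also take. Krt71, a keratin of the inner root sheath, stood at 31.9 against 0.930 FPKM and Krt35, a keratin of the hair shaft, at 28.2 against 1.91 FPKM. The hair shaft factor Hoxc13 reached 10.3 FPKM in Koa ear, 11.2 in WT dorsal and 6.52 in WT ear epidermis. In bulk libraries more cells of a type and more RNA per cell cannot be told apart, and the part of the hair cells in these differences was not tested.

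**Figure D3:**
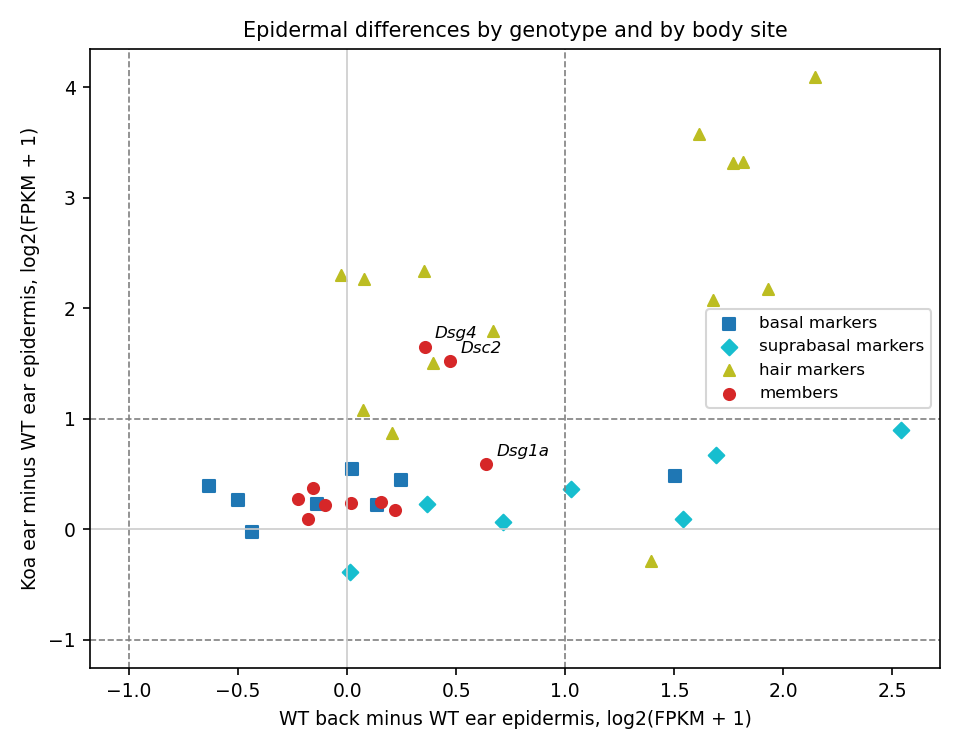
Difference in log2(FPKM + 1) of Koa against WT ear epidermis (vertical axis) and of WT back against WT ear epidermis (horizontal axis) for members and marker lists, with dashed lines at the size rule of 1. The axes share the WT ear library. Dsg4 (1.65) and Dsc2 (1.52) lie above the upper line with 12 hair markers, while no member passes the rule between back and ear.

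In ear dermis, the same question gave other members. Dsg1a was higher in Koa by 1.76, a ratio of 3.83 (3.58 to 4.10), and Dsc3 by 1.04, a ratio of 2.11 (2.03 to 2.19). With these, 2 of the 9 members tested were called, against 1.71% of all genes called higher. Pkp1 (0.99) and Pkp3 (0.98) lay just under the rule and passed it when libraries were scaled to equal totals. The 9 differences ran from 0.46 for Dsg2 to 1.76 for Dsg1a with a median of 0.85, beside 0.00 over all genes.

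The low members of the dermis showed larger ratios than the log2(FPKM + 1) scale gives them. Dsc2 stood at a ratio of 3.54 (2.59 to 4.98) between Koa and WT ear dermis and Dsg1b at 2.73 (2.04 to 3.73), with differences of 0.68 and 0.63. Dsg4, under 1 FPKM in both and so not tested, was at least 18.4-fold higher in Koa by the lower limit of its counting interval, and its 68 fragments come to a ratio of 23.2 against a floor of 3 fragments in WT ear dermis. At a pseudocount of 0.1 the count of called members was 6, and the share of all genes called at that setting was not computed.

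Keratinocyte markers moved with the members in ear dermis, and their part was not tested. Basal markers had a median of 1.01 (4 of 8 higher) and suprabasal markers 1.08 (3 of 6 higher). Of 11 hair markers 10 were higher. Relative to the basal marker median, a setting chosen after the data were seen, no member passed the rule, 2 of 9 were above 0, and Dsg1a was the highest (0.75). After a keratinocyte share of each epidermal profile, set by the basal markers alone, was subtracted, Dsg1a came to 0 FPKM in both libraries and lost its call, and the 2 members called were Dsc3 (2.50) and Pkp1 (1.78). Both were cut off at 0 in WT ear dermis, and 4.66 and 2.44 FPKM were left in Koa ear dermis. These calls therefore hang on the exact share, since Dsc3 stood at 11.8% of its epidermal level in Koa ear and the share subtracted was 10.7%. Among the other desmosome genes Dsp (64.0 against 26.1 FPKM, 1.26) and Evpl (6.66 against 2.34 FPKM, 1.20) were higher, 2 of 7, and of 6 epidermal transcription factors Grhl1 (7.41 against 3.16 FPKM), while the 10 adherens junction and 7 tight junction genes gave no call.

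**Figure D4:**
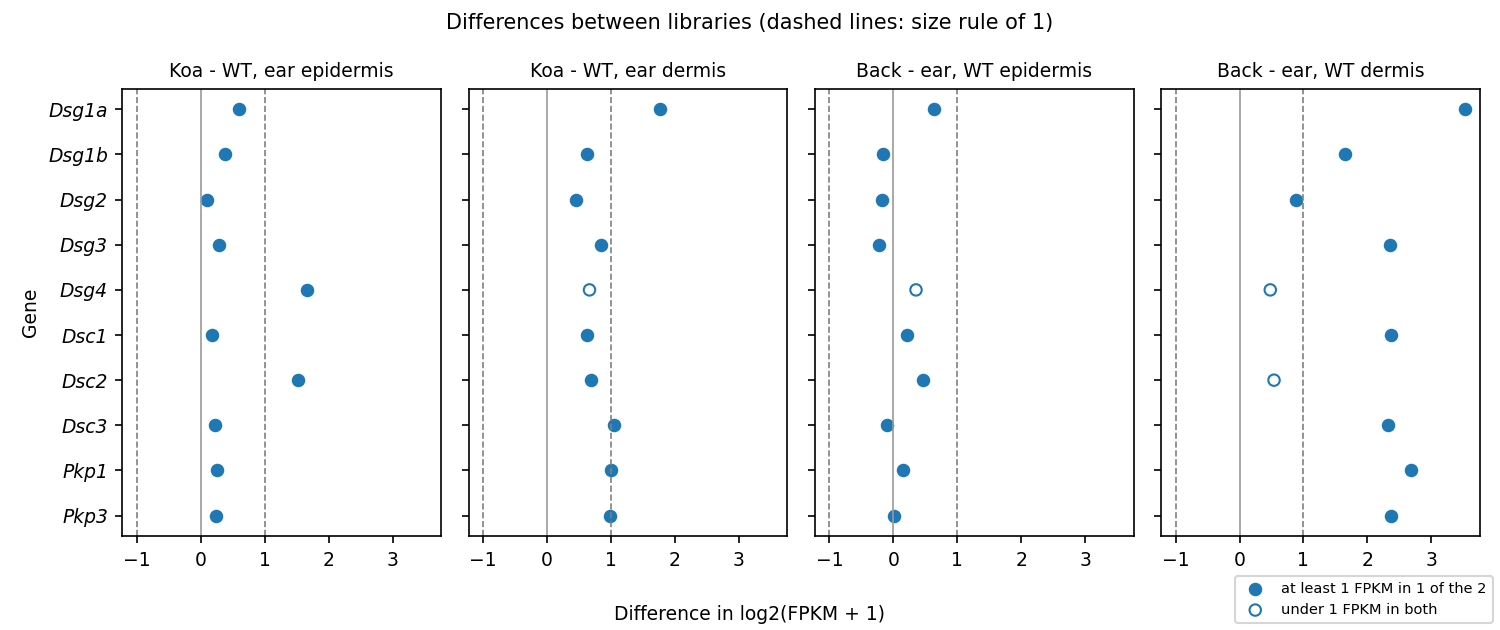
Differences in log2(FPKM + 1) of each member in 4 comparisons, with dashed lines at the size rule of 1, filled points for genes that reach 1 FPKM in either library and open points for the rest. In Koa against WT epidermis Dsg4 and Dsc2 stand out from a narrow group, whereas in back against ear dermis 7 of 8 filled points lie beyond the rule.

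The second comparison asks how the back differs from the ear in WT mice. In epidermis no member was called in either direction, 0 of 9, against 11.5% of all genes called higher and 5.47% called lower. The median was 0.02, with 5 members above 0 and 4 below, but with equal totals, a scaling that moves the median of all genes to -0.46, 2 were above and 7 below. Dsg1a had the largest difference, 0.64, a ratio of 1.56 (1.54 to 1.58), and was the 1 member to pass a rule of 1.5 times. Dsg3 had the lowest, -0.23, a ratio of 0.853 (0.835 to 0.871).

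Dsc2 was higher in back epidermis at a ratio of 1.65 (1.40 to 1.94), and Dsg4, under 1 FPKM in both libraries, at a ratio of 3.74 (2.04 to 7.24). Pkp3 lay within counting error of its level in the ear (0.988 to 1.04). Dsc3 stood at a ratio of 0.933 (0.923 to 0.944) and Dsg2 at 0.880 (0.848 to 0.915).

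The other junction and epidermal lists stand beside the same 11.5% of all genes called higher, a share that would come to about 1 call among 9 members. Of 8 tight junction genes 3 were higher in back epidermis: Cldn4 at 48.2 against 7.62 FPKM, Cldn1 at 196 against 80.1 FPKM and Cgn, which encodes cingulin, at 4.30 against 1.57 FPKM. Of 9 adherens junction genes 1 was higher, Nectin4 (38.9 against 11.2 FPKM), and of 8 other desmosome genes 1, Evpl (56.4 against 24.1 FPKM), both near the share of all genes. Of 9 epidermal transcription factors 4 were higher, Ovol1 (67.3 against 10.3 FPKM), Zfp750 (77.6 against 15.9 FPKM), Grhl3 (28.6 against 5.89 FPKM) and Klf4 (598 against 185 FPKM). All 8 stress response genes were higher in the back (median 3.27), as were 4 of 7 suprabasal markers, and their part in these calls was not tested.

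In dermis, 7 of the 8 members tested were higher in the back than in the ear and none lower, against 11.7% of all genes called higher. Dsg1a differed by 3.53, a ratio of 13.5 (12.7 to 14.4), Pkp1 by 2.69, a ratio of 6.76 (6.50 to 7.03), and Dsc1 by 2.37, a ratio of 8.51 (7.28 to 10.02). The exception was Dsg2, at 0.88 and a ratio of 1.96 (1.84 to 2.10). The members' median was 2.36, beside -0.05 over all genes.

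Keratinocyte markers were also higher in dorsal dermis, and their part in the members' differences was not tested. All 8 basal markers (median 2.32) and all 7 suprabasal markers (median 3.65) were called higher in dorsal dermis, as were 5 of 7 other desmosome genes, with the widest differences for Dsp (221 against 26.1 FPKM), Evpl (25.6 against 2.34 FPKM), Perp (657 against 104 FPKM) and Jup (83.2 against 14.1 FPKM). Relative to the basal marker median 1 member stayed higher, Dsg1a, and Dsg2 became lower. After the keratinocyte share was subtracted, 2 members stayed called, Dsg3 and Dsc1. They had 3.03 and 2.93 FPKM left in dorsal dermis and 0 and 0.0691 FPKM in WT ear dermis. These calls too hang on the share. In dorsal dermis Dsg3 stood at 44.0% and Dsc1 at 55.0% of the epidermal level. The share subtracted there was 39.9%, and the basal markers behind it ranged from 26.5% to 54.5%.

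Koa ear and WT dorsal skin differ in genotype and site at once, and these comparisons share libraries with those above. In epidermis Dsg4 (a ratio of 5.89, 4.28 to 8.29) and Dsc2 (2.52, 2.22 to 2.86) were higher in Koa ear, 2 of 10, against 3.52% of all genes called higher. Relative to the basal marker median neither was called, and median ratio scaling did not keep both calls. Dsg1a stood at 0.967 (0.953 to 0.981) of its dorsal level. In dermis 7 of 9 members were lower in Koa ear, against 9.63% of all genes called lower, while Dsg2 (-0.42) and Dsc2 (0.14) were not called. The median was -1.39, and that of the basal markers was -1.36.

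The third question is where the members stand between the layers. In WT ear 8 of 9 members were lower in dermis than in epidermis, against 14.4% of all genes called lower, and in Koa ear 10 of 10, against 12.7%. In WT back 5 of 9 were lower, against 8.27%. The medians were -3.74, -2.79 and -1.16. Dsc2 in WT ear (-0.91) was the 1 member tested there that missed the rule, and in the back no member passed it with equal totals, although all 9 stayed below 0.

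Set as a percent of the epidermal level, most members stood close to the basal keratinocyte markers of the same pair. The median of the 10 members was 6.49% in WT ear, 11.6% in Koa ear and 42.1% in WT back. The basal markers had medians of 7.16%, 10.7% and 39.9%, with ranges of 4.12% to 18.7%, 9.81% to 23.0% and 26.5% to 54.5%. Of the 10 members 7, 8 and 8 lay within these ranges. The upper end was Lama3, a laminin chain, in each pair, and without it the ranges ended at 9.48%, 13.9% and 47.6% and held 7, 7 and 7 members. Dsg3, Dsc3, Pkp1 and Pkp3 lay between 6.10% and 6.62% in WT ear and between 10.3% and 11.8% in Koa ear.

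Dsg2 was above the markers in both ears. It stood in WT ear dermis at 22.4% of its epidermal level (21.1% to 23.8%, counting error) and in Koa ear dermis at 29.9% (28.4% to 31.5%), above the highest basal marker of either pair. In the back it stood at 50.1% (47.6% to 52.7%), inside the marker range through Lama3 alone. The part of its dermal level beyond the median marker share was 4.48 FPKM in WT ear, 6.04 in Koa ear and 2.63 in WT back. This remainder depends on the share taken, since single markers ranged widely, and its source was not tested. In WT tail dermis, which has no matched epidermal library, Dsg2 stood at 0.04 FPKM.

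The other members above the range were low ones and Dsc1. Dsc2 stood at 21.4% in WT ear (15.3% to 28.8%), above the range, although its interval holds the highest marker. In Koa ear it stood at 18.2% (15.4% to 21.4%), inside the range through Lama3 alone. Dsg4 stood at 23.4% in Koa ear (17.7% to 30.5%), just above the highest basal marker, which its interval holds. In the back it stood at 93.4% (59.7% to 146%). Hair markers with at least 1 FPKM in the epidermal library had medians of 11.3%, 26.9% and 56.3% in WT ear, Koa ear and back. These medians cover 6, 14 and 11 genes, so the genes differ between the pairs. Dsc1 stood at 55.0% in the back (51.4% to 58.8%), its interval holding the highest marker.

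**Figure D5:**
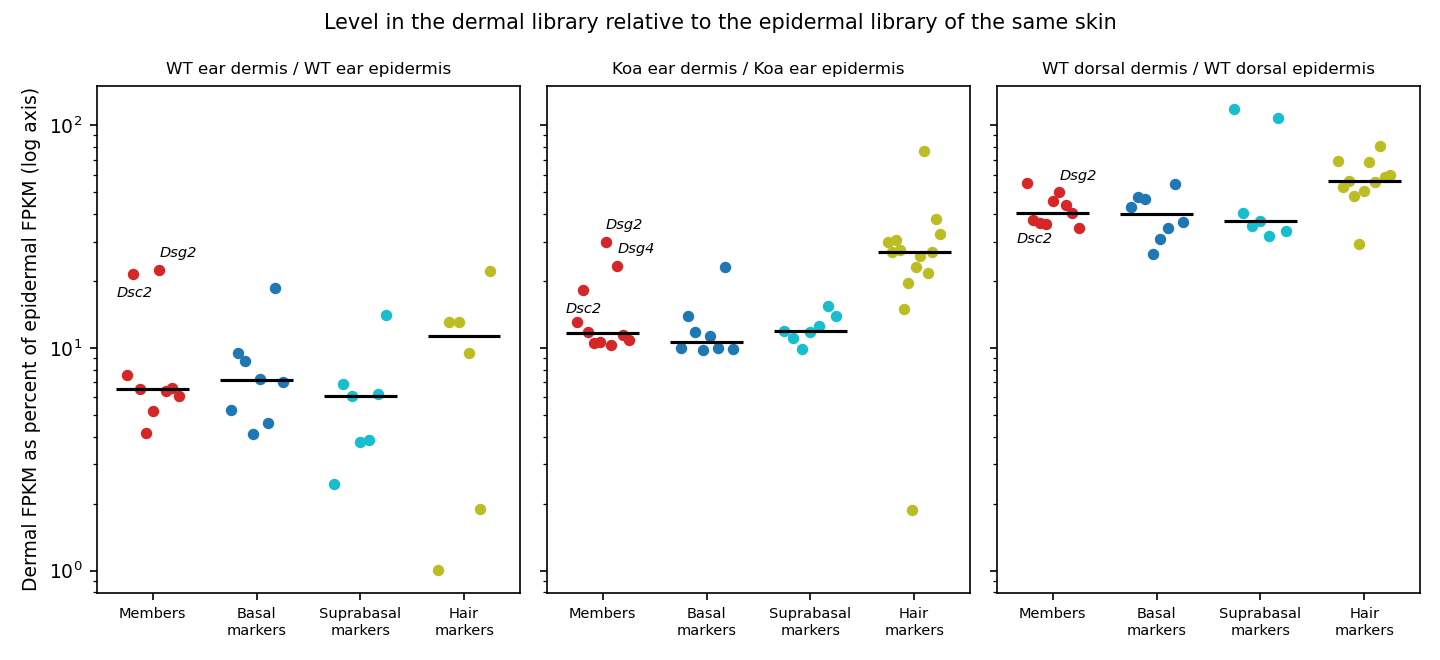
Level in each dermal library as percent of the level in the epidermal library of the same skin (log axis), for members and marker genes with at least 1 FPKM in that epidermal library and a dermal level above 0, with a line at the median of the genes drawn. Dsg2 lies at 22.4% and 29.9% in the ears, above all basal markers, and Dsg4 is not drawn for WT ear and back, where it is under 1 FPKM in epidermis.

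Other junction genes with at least 1 FPKM in the epidermal library spread more widely between the layers. Of adherens junction genes the median in WT ear dermis was 38.1% of the epidermal level, from 11.7% to 107%, and of tight junction genes 13.6%, from 8.30% to 137%. The other desmosome genes had a median of 10.04%, from 5.90% to 63.3% for Pkp4. In the back the medians of these lists were 49.4%, 41.5% and 45.4%.

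In tail dermis the members were near the bottom of what the table shows. Their summed level was 7.43 FPKM, against 68.2 in WT ear and 418 in WT dorsal dermis, and Pkp1 (3.85 FPKM) and Pkp3 (1.17 FPKM) alone reached 1 FPKM. Against WT ear dermis 6 of 7 members were lower, beside 25.8% of all genes called lower. Against WT dorsal dermis 8 of 8 were lower, beside 27.9%. The medians were -2.07 and -4.48, where all genes had -0.49 and -0.46, and with median ratio scaling, which brings the latter to -0.05 and -0.09, the members' medians were -1.87 and -4.24.

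Dsg2 was the member furthest down in tail dermis as a percent of WT ear dermis, at 0.608%, and Dsc1 the nearest of those tested, at 29.5%. The tail value of Dsg2 was 0.04 FPKM, near the lowest that 2 decimals can show, so its percent is coarse. Dsc3 stood at 3.60% and Pkp1 at 21.4%. Basal keratinocyte markers were lower too, 5 of 8 against WT ear dermis (median -2.25) and 8 of 8 against WT dorsal dermis (median -4.57). In tail against ear Krt15 stood at 11.3 against 205 FPKM and Krt5 at 43.2 against 267 FPKM, Col17a1 differed by -3.02, and the integrin Itgb4 was the 1 marker above 0 (11.6 against 8.98 FPKM).

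Other cell types also differed in the tail library. Of 7 melanocyte markers 6 were higher in the tail in either comparison, and of 6 endothelial markers 5 were higher against the ear and 6 against the back. Their part and that of the keratinocytes was not tested. The tail differs from the other libraries in the form of its values and in Xist and Ddx3y as well as in site, and its depth is unknown, so the body site, the sex and the way the values were made cannot be told apart in these differences.

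Over the 6 libraries other than the tail, 8 of the members followed nearly 1 pattern. Pearson correlations of log2(FPKM + 1) among Dsg1a, Dsg1b, Dsg2, Dsg3, Dsc1, Dsc3, Pkp1 and Pkp3 lay between 0.947 and 1.00, and Dsc3 and Pkp3 were the most alike. Dsg4 and Dsc2 were most alike each other (0.885), and Dsg4 reached at most 0.529 with any of the 8. Dsc2 was nearer to the 8, with correlations from 0.732 (Dsc1) to 0.824 (Dsg1b). These values describe 6 libraries that differ above all in their layer and keratinocyte content.

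Among 11383 other genes the nearest to each member was found by the same correlation. Nearest to Dsg1a was Krt10, a keratin of the upper layers, to Dsc3 and Pkp3 Tcfap2a, a transcription factor of the epidermis, to Dsg3 Esrp2, an epithelial splicing factor, and to Pkp1 Clca5, each above 0.99. Also above 0.99 were the nearest to Dsg1b, Fam83b, to Dsg2, Sqle, an enzyme of cholesterol synthesis, and to Dsc1, Fam83c. Between 37 and 108 genes stood above 0.99 for each of the 8 members of the common pattern. For Dsg4 and Dsc2 none did. Nearest to Dsg4 were Sfxn2 (0.97), Ttc38 and Gga1, and nearest to Dsc2 was Baiap2l1 (0.99), which stood at 79.0 FPKM in Koa ear, 16.5 in WT dorsal and 12.0 in WT ear epidermis.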

How the data were processed

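RNA sequencing of 7 skin libraries, 1 per group, was analysed from the table of FPKM values that the authors deposited. The submitters' processing notes name the tools TopHat2 (2.0.13) and Cufflinks (2.2.1) and, without roles, the builds GRCm38 and mm9. The annotation and the handling of shared reads are not given in the sources used here. Depth was recovered from steps in the FPKM values (599 genes gave a step, 53.7% to 64.1% of ratios lay on steps within 0.05%), on the assumption that libraries differ little in depth, and was tested on simulated data. Members, lists and settings were chosen with earlier results of these data known. Named were all 10 members, up to 4 genes of each list that passed the rule with the widest differences, or up to 4 by level where none passed, and the gene most like each member (3 for Dsg4). Hoxc13, Krt71, Krt35, Krt1, Krt14, Itgb4, Lama3 and Pkp4, and in ear epidermis Dsp and Jup, were named outside this rule with their values known. Left out were 3 collagen genes with failed estimates and, in tail comparisons, 222 symbols at 0 in the tail and at 10 FPKM or more elsewhere. Replicates were not available, so no test was made. Sequences are not shown. Python 3.11.15, numpy 2.4.6, pandas 2.3.3 and scipy 1.17.1 were used.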

Additional observations from a re-analysis of the deposited data

How the results depend on the processing

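No paired analysis was possible because each group has 1 library, and leaving out a replicate was not possible for the same reason. The share of all genes called was computed for the main setting alone, so the counts under other settings stand without it. Counts of called members that moved by over 1.5 times were as follows. With a pseudocount of 5 the 2 members higher in Koa than WT ear epidermis became 0, and the 2 higher in Koa than in dorsal epidermis 0; with at least 5 FPKM each became 1. For Koa against WT ear dermis the 2 members became 6 with a pseudocount of 0.1, 1 with a pseudocount of 5, 4 with equal totals or median ratio scaling, 8 under the rule of 1.5 times and 0 relative to the basal markers; after subtraction 2 were called, of which 1 was the same (Dsc3). For back against ear 0 became 1 in epidermis under the rule of 1.5 times, and in dermis 7 became 2 after subtraction and 1 relative to the basal markers, with 1 lower (Dsg2) in place of 0. Koa ear against dorsal epidermis gave 4 with equal totals, 1 with median ratio scaling and 0 relative to the basal markers; in dermis the 7 lower became 2 after subtraction and 0 relative to the markers, and 1 member became higher under either. Between the layers of the back the 5 lower became 0 with equal totals and 9 under the rule of 1.5 times. The dermal percent became 7.99%, 13.9% and 61.8% with equal totals and 7.50%, 13.5% and 48.8% with median ratio scaling. Differences of called members changed sign 6 times: in Koa ear against dorsal dermis after subtraction for Dsc3 (2.50), Pkp1 (0.78) and Pkp3 (0.29) and relative to the markers for Dsg1b (0.33) and Dsc3 (0.081), and in back against ear dermis relative to the markers for Dsg1b (-0.66). Those of members that were not called changed sign 26 times, 19 of them relative to the markers (6 in Koa against WT ear epidermis, 7 in Koa against WT ear dermis), 5 with equal totals and 2 after subtraction. Settings relative to the markers in dermis, and median ratio scaling of the percent, were chosen after the data were seen. The cause was not tested. Of 181 counts and medians, 152 stayed within 1.5 times or within counting error, among them counts that were 0 in every setting. Of 767 differences of single members under these settings, 362 moved by more than counting error. Tail comparisons have no interval, so any change there was counted as a move. The depth of 6 libraries limits Dsg4 most, at 0 to 68 fragments in dermis; the tail's depth is unknown.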
